A study of Mus musculus with 6 samples.

Results

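The genes described here are 8 markers of bile duct epithelium and of liver progenitor cells, namely Epcam, Cldn7, Krt7, Krt19, Sox9, Spp1, Prom1 and Cd24a. They were chosen by name and read as rows of a table of raw read counts, in which 8 of 24063 genes carry these symbols. All 8 passed the filter on low counts that 13572 genes passed. The counts come from RNA-seq of DEN-induced liver tumors of male C57BL/6 mice, 3 libraries from NR2E3+/+ (WT) and 3 from NR2E3-/- (Nr2e3-/-) animals. Mice of both genotypes had received diethylnitrosamine (DEN), a liver carcinogen, at 25 mg per kg at 15 days of age, and the tumors are those of the 24-week time point. No saline-treated liver and no liver tissue beside the tumors was measured, so a level cannot be set against normal liver. Nr2e3 itself had 0 counts in each of the 6 libraries, so its own counts could not check the genotypes.

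Cholangiocytes, the cells that line the bile ducts, carry keratins 7 and 19, the adhesion molecule EpCAM, the transcription factor SOX9 and the secreted protein osteopontin, all of which hepatocytes lack or hold at low levels. When hepatocytes are damaged, duct-like progenitor cells with the same markers can spread through the lobule, and in liver cancer EpCAM, CD133 (the product of Prom1) and CD24 are used to mark tumor cells with stem cell features. EpCAM is also a target gene of β-catenin, and its cleavage, which ADAM17 begins, frees an intracellular part that acts with β-catenin in the nucleus.

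The study concerns Sp1, which binds GC boxes, and β-catenin, which acts through TCF/LEF factors, so the 250 bases before a RefSeq start of the gene (GRCm38.p6) are given for Epcam, for Spp1, which was highest in the same libraries as Epcam, for Cldn7, which went the other way, and for Krt7, which held the most GC boxes. Capitals mark a GC box, written GGGCGG on either strand, or a TCF/LEF core, written CTTTGA on either strand. RefSeq windows were found for 5 of the 8 genes, and Krt19, Sox9 and Cd24a were not among them.
Epcam (chr17:87635729-87635978, plus strand): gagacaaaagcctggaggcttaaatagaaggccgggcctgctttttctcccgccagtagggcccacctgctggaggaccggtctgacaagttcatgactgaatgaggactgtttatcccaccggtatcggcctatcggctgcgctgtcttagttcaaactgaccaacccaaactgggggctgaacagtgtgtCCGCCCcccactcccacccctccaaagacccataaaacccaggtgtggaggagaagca
Spp1 (chr5:104434861-104435110, plus strand): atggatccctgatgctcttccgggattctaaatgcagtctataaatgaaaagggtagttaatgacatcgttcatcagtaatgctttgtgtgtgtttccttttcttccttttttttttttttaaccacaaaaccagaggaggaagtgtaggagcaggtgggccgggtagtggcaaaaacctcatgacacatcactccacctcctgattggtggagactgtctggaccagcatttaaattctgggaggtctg
Cldn7 (chr11:69964529-69964778, plus strand): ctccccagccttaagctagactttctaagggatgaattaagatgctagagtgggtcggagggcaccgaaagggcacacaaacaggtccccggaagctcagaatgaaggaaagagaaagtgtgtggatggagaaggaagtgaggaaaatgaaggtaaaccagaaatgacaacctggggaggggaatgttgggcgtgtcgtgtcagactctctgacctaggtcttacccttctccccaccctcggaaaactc
Krt7 (chr15:101412153-101412402, plus strand): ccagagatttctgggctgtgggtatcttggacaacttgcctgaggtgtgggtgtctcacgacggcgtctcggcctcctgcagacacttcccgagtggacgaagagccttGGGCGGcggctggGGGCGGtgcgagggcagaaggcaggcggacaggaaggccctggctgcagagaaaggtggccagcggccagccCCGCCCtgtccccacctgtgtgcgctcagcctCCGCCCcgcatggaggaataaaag

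The Epcam window held 1 GC box and no TCF/LEF core, and the Krt7 window held 4 GC boxes. Neither motif was found in the windows of Spp1 and Cldn7 shown above. Both genes have another RefSeq start further into the gene, and the window before that of Cldn7 (chr11:69965171-69965420) held 1 GC box, while the one of Spp1 (chr5:104435942-104436191) held neither motif. Prom1, whose windows are not printed, held 1 GC box and no TCF/LEF core in chr5:44101737-44101986. It held neither motif in chr5:44094769-44095018. A GC box occurred in 32.7% and a TCF/LEF core in 13.8% of 32851 such windows over all genes. These matches are descriptions of letters in a short window and not of bound sites.

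Total counts ranged from 25250090 to 28690279 in WT and from 15376261 to 28336305 in Nr2e3-/- libraries. Along the first principal component of log2 expression, Nr2e3-/- replicate 1 lay at -14.2. That is nearer to the WT libraries (-31.5 to -23.3) than to Nr2e3-/- replicates 2 and 3 (53.0 and 43.4). Along the second component it lay at -37.7, the lowest of all libraries. The WT libraries lay at 0.818 to 23.3 there, and Nr2e3-/- replicates 2 and 3 at 25.8 and -22.8. Nr2e3-/- replicate 1 was also the shallowest library. Results are therefore given with and without it where it matters. Levels below are normalized CPM, which are counts per 1000000 counts of a library after edgeR's TMM scaling, and log2 fold changes are Nr2e3-/- minus WT. Tumor pieces hold many cell types, and in such bulk samples fewer cells of a type and less RNA per cell cannot be told apart.

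None of the 8 markers passed an adjusted p-value of 0.05 in edgeR's quasi-likelihood test over all genes, where 0.0958% of the genes tested were called (13 of 13572). At an unadjusted p-value under 0.05 there were 3 of the 8, Epcam and Spp1 with higher and Cldn7 with lower means in Nr2e3-/- tumors, and 21.5% of all genes tested were past that limit. DESeq2 called 2 of the 8 at an adjusted p-value under 0.05, Epcam and Cldn7, where it called 7.93% of 13776 genes, and limma-voom with sample quality weights called 1, Epcam, where it called 17.4% of 13572. The log2 fold change was above 0 for 4 markers and below 0 for 4, with a median of -0.07 against 0.01 over all genes tested. The 2 groups overlapped for each of the 8 markers, while they did not overlap for 26.8% of the genes tested. The counts of markers with higher and lower means at the unadjusted limit, 2 and 1 of the 8, stand beside 11.8% higher and 9.72% lower over all genes. For adjusted calls those shares were 0.0663% and 0.0295%. None of the 8 was called by edgeR with upper quartile scaling (0.0589% of all genes called), with no filter beyond 1 count (0.372%), with at least 10 counts in every library (0.0569%) or without WT replicate 2 (0.0146%).

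**Figure D1:**
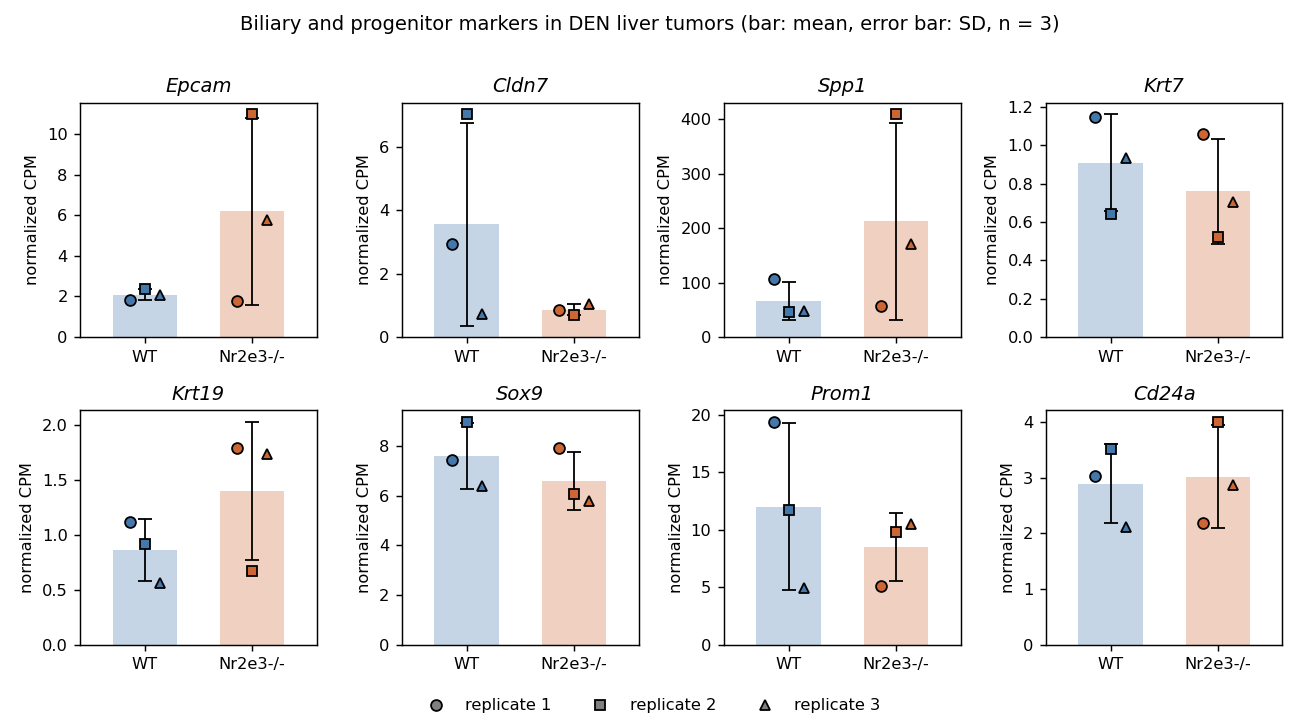
Normalized CPM (y axis, from 0) of the 8 markers in WT and Nr2e3-/- tumors (x axis), with symbols for the replicate number, bars for the mean and error bars for the SD of 3 libraries. Epcam and Spp1 are high in Nr2e3-/- replicates 2 and 3 but not in replicate 1, Cldn7 is high in WT replicates 1 and 2 only, and the groups overlap in every panel.

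Epcam encodes an adhesion molecule of epithelial cells that is absent from mature hepatocytes. It lies on chromosome 17 of GRCm38 (87635979 to 87651129 in GENCODE M21, plus strand), and no annotated gene overlaps it. It had 47, 70 and 60 counts in WT replicates 1, 2 and 3 and 27, 295 and 107 counts in Nr2e3-/- replicates 1, 2 and 3. In normalized CPM these were 1.80, 2.37 and 2.08 in WT and 1.79, 11.0 and 5.79 in Nr2e3-/- tumors. The WT libraries were close together and Nr2e3-/- replicate 1 lay just under the lowest of them, while the other two Nr2e3-/- libraries lay above all WT libraries. Between genotypes the log2 fold change was 1.58 with a standard error of 0.56 and a 95% interval of 0.26 to 2.91 (edgeR adjusted p = 0.178). An exact permutation test, two-sided, gave p = 0.4, where 0.1 is the smallest that 3 against 3 libraries allow. Without Nr2e3-/- replicate 1 the log2 fold change was 2.02 (edgeR adjusted p = 0.00808, in a fit that called 21.8% of 13840 genes), and without Nr2e3-/- replicate 2 it was 0.88 (edgeR adjusted p = 0.336).

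Cldn7 encodes claudin-7, a tight junction protein of duct and gut epithelium that binds EpCAM directly. It lies on chromosome 11 (69964779 to 69967885, plus strand) with no overlapping gene. It had 76, 208 and 21 counts in WT and 13, 19 and 19 counts in Nr2e3-/- libraries. The normalized CPM were 2.92, 7.04 and 0.728 in WT and 0.861, 0.705 and 1.03 in Nr2e3-/- tumors. WT replicates 1 and 2 were above every Nr2e3-/- library, but WT replicate 3 lay among the Nr2e3-/- libraries. Nr2e3-/- and WT differed by a log2 fold change of -2.05 with a standard error of 0.75 and a 95% interval of -3.82 to -0.29 (edgeR adjusted p = 0.185). For Cldn7 the adjusted p was 0.0478 in DESeq2 and 0.352 in limma-voom. Without WT replicate 2 the log2 fold change was -1.07 (edgeR adjusted p = 0.472), against -2.05 with all libraries. Epcam and Cldn7 had opposite signs, and the libraries highest in Cldn7 were not those highest in Epcam.

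Other genes of EpCAM's complexes and cleavage were read from a list of 21, of which 19 were tested. There were 8 with a log2 fold change above and 11 with one below 0, and the median was -0.09. At an unadjusted p-value under 0.05 there was 1, and 0 at an adjusted one in edgeR. Adam17, the sheddase, had a log2 fold change of 0.23 (edgeR adjusted p = 0.239) and Ctnnb1, which encodes β-catenin, one of 0.11 (edgeR adjusted p = 0.546). Tspan8, a tetraspanin found in complexes with EpCAM and claudin-7, had 149, 143 and 4.92 CPM in WT and 14.8, 21.9 and 76.9 CPM in Nr2e3-/- tumors. Tspan8, Adam17 and Ctnnb1 were picked out after their values were seen. Like Cldn7, Tspan8 was high in WT replicates 1 and 2 and low in WT replicate 3.

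Krt19 and Krt7 encode the keratins by which bile ducts are recognised in liver sections. Krt19 (chromosome 11, 100140810 to 100148665, minus strand) had 29, 27 and 16 counts in WT and 27, 18 and 32 counts in Nr2e3-/- libraries. Its normalized CPM were 1.11, 0.913 and 0.555 in WT and 1.79, 0.668 and 1.73 in Nr2e3-/- tumors. Nr2e3-/- replicates 1 and 3 were the highest of the 6 libraries, and Nr2e3-/- replicate 2, the library highest in Epcam, was the second lowest. The log2 fold change of Krt19 was 0.67 with a standard error of 0.46 and a 95% interval of -0.41 to 1.74 (edgeR adjusted p = 0.42). Krt7 (chromosome 15, 101411043 to 101430313, plus strand) overlaps Gm671, annotated as an antisense gene, and the strand setting of the counting is not given in the sources used here. Krt7 had 30, 19 and 27 counts in WT and 16, 14 and 13 counts in Nr2e3-/- libraries, which is 1.15, 0.643 and 0.936 CPM in WT and 1.06, 0.520 and 0.703 CPM in Nr2e3-/- tumors. The log2 fold change of Krt7 was -0.29 with a standard error of 0.38 and a 95% interval of -1.19 to 0.61 (edgeR adjusted p = 0.675). Both intervals are wide and span 0, so the direction of a change is not settled for either keratin. For Krt19 the SD of log2 CPM was 0.467 in WT and 0.747 in Nr2e3-/- tumors, where counting error alone would give 0.305 and 0.293.

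Further keratins were read from the bile duct list. Krt8 and Krt18 form the keratin filaments of hepatocytes as well as of duct cells. Krt18 had 327, 301 and 210 CPM in WT and 269, 967 and 641 CPM in Nr2e3-/- tumors (log2 fold change 1.16, standard error 0.43, edgeR adjusted p = 0.186). Krt8 had 206, 179 and 125 CPM in WT and 160, 656 and 388 CPM in Nr2e3-/- tumors (log2 fold change 1.24, standard error 0.47, edgeR adjusted p = 0.194). For Krt8 and Krt18, as for Epcam, Nr2e3-/- replicates 2 and 3 were above all WT libraries. Nr2e3-/- replicate 1 lay among the WT libraries for both keratins, and for Epcam it was level with the lowest WT library (1.79 and 1.80 CPM). Krt23, a keratin raised in duct-like reactions, had 15.7, 17.9 and 5.20 CPM in WT and 2.71, 2.6 and 2.0 CPM in Nr2e3-/- tumors, with groups that did not overlap (log2 fold change -2.40, standard error 0.46, edgeR adjusted p = 0.093). Krt20, a keratin of gut epithelium, had 33.7, 25.6 and 0.798 CPM in WT and 0.463, 1.37 and 1.41 CPM in Nr2e3-/- tumors (log2 fold change -4.15, standard error 1.18, edgeR adjusted p = 0.134). Krt20 was high in the same 2 WT libraries as Cldn7 and Tspan8. Krt8, Krt18 and Krt20 were picked out after their values were seen.

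Sox9 encodes the transcription factor that specifies duct cells during liver development. It lies on chromosome 11 (112782224 to 112787760, plus strand) and had 194, 266 and 184 counts in WT and 120, 164 and 107 counts in Nr2e3-/- libraries. The normalized CPM were 7.45, 9.0 and 6.38 in WT and 7.94, 6.09 and 5.79 in Nr2e3-/- tumors. The 6 libraries were close together, with Nr2e3-/- replicate 1 inside the WT range and the other two just below it. The log2 fold change was -0.21 with a standard error of 0.20 and a 95% interval of -0.68 to 0.26 (edgeR adjusted p = 0.56). Of the 8 markers, Sox9 had the narrowest interval.

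Spp1 encodes osteopontin, a secreted phosphoprotein made by duct cells, by damaged or transformed hepatocytes and by some macrophages. It lies on chromosome 5 (104435118 to 104441050, plus strand), inside which Gm42793 is annotated on the same strand. Spp1 had 2782, 1361 and 1357 counts in WT and 850, 11049 and 3166 counts in Nr2e3-/- libraries. The normalized CPM were 107, 46.0 and 47.1 in WT and 56.3, 410 and 171 in Nr2e3-/- tumors. Nr2e3-/- replicates 2 and 3 were above every WT library, and Nr2e3-/- replicate 1 lay between WT replicates 1 and 3. Between genotypes the log2 fold change was 1.68 with a standard error of 0.68 and a 95% interval of 0.07 to 3.28 (edgeR adjusted p = 0.219, exact permutation p = 0.2, two-sided). Without Nr2e3-/- replicate 1 it was 2.13 (edgeR adjusted p = 0.0266), and without Nr2e3-/- replicate 2 it was 0.78 (edgeR adjusted p = 0.444). Without WT replicate 1 it was 2.19 (edgeR adjusted p = 0.285), and the groups then did not overlap, as for 36.2% of the genes in that fit. The groups of Spp1, Epcam and Sox9 did not overlap without Nr2e3-/- replicate 1 either, where 54.9% of genes did not. Krt19 was the single marker without overlap when Nr2e3-/- replicate 2 was left out (39.8% of genes), Cldn7 and Prom1 were those without WT replicate 3 (33.5%), and there was none without Nr2e3-/- replicate 3 (30.8%).

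The receptors of osteopontin and of CD24 were read from a list of 13, of which 11 were tested. There were 8 above and 3 below 0, with a median of 0.04 on the log2 scale, and at an unadjusted p-value under 0.05 there were 2 higher and 1 lower. None of them had an adjusted p-value under 0.05 in edgeR. Itgb3, a subunit of the αvβ3 integrin that binds osteopontin, had 4.68, 4.6 and 6.76 CPM in WT and 6.09, 14 and 9.03 CPM in Nr2e3-/- tumors (log2 fold change 0.87, standard error 0.32, edgeR adjusted p = 0.188). Itgb5, a subunit of the αvβ5 integrin, had a log2 fold change of -0.37 (edgeR adjusted p = 0.177). Selp, which encodes P-selectin, an adhesion receptor that binds CD24, had one of 1.10 (edgeR adjusted p = 0.213). Cd44, another osteopontin receptor and itself a progenitor marker, had 9.45, 15 and 11.3 CPM in WT and 7.61, 28.3 and 10.8 CPM in Nr2e3-/- tumors, and was picked out after its values were seen. Only Nr2e3-/- replicate 2 was above the WT range of Cd44.

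Prom1 encodes CD133, a membrane protein of cell protrusions. It lies on chromosome 5 (43993620 to 44102032, minus strand) and overlaps the annotated genes Gm42716 on its own strand and Gm16401 on the other. It had 504, 346 and 141 counts in WT and 77, 264 and 194 counts in Nr2e3-/- libraries. The normalized CPM were 19.4, 11.7 and 4.89 in WT and 5.10, 9.80 and 10.5 in Nr2e3-/- tumors. The Nr2e3-/- libraries all lay inside the WT range, which spanned 3.96-fold. Nr2e3-/- and WT differed by a log2 fold change of -0.49 with a standard error of 0.49 and a 95% interval of -1.64 to 0.66 (edgeR adjusted p = 0.574), and it was 0.04 without WT replicate 1, so its sign rested on that library.

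Cd24a encodes CD24, a small glycosylated surface protein of duct cells, immature blood cells and tumor cells. It lies on chromosome 10 (43578284 to 43584265, plus strand) with no overlapping gene, and 2.75% of the 50-base words of its transcripts recur in Gm6212, so some reads could be shared with that copy. It had 79, 104 and 61 counts in WT and 33, 108 and 53 counts in Nr2e3-/- libraries. The normalized CPM were 3.03, 3.52 and 2.12 in WT and 2.18, 4.01 and 2.87 in Nr2e3-/- tumors. Both groups ran from the low to the high end of the range. The log2 fold change was 0.08 with a standard error of 0.30 and a 95% interval of -0.63 to 0.78 (edgeR adjusted p = 0.894), with a negative sign under upper quartile scaling and without WT replicate 3 or Nr2e3-/- replicate 2.

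**Figure D2:**
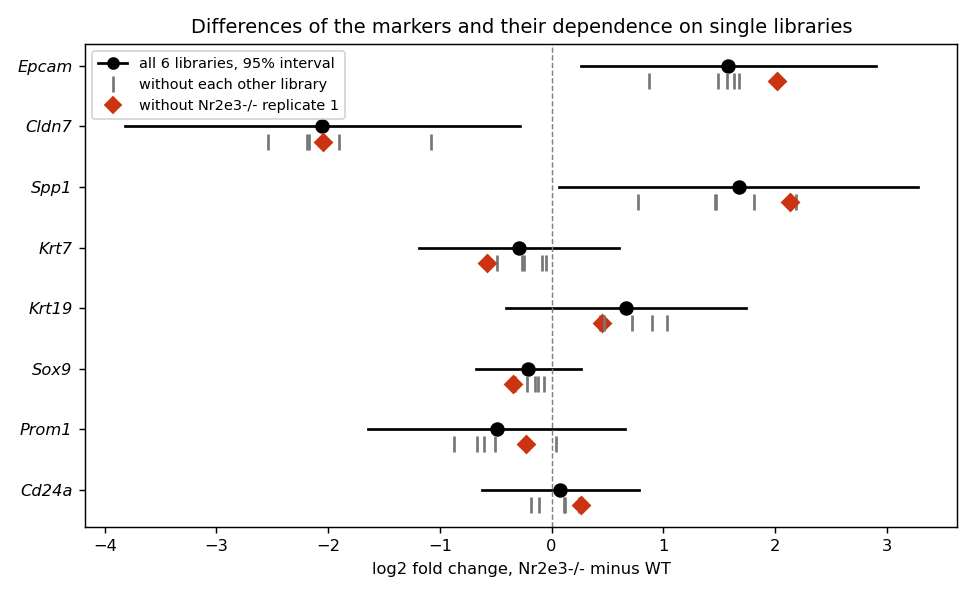
Log2 fold change of each marker (x axis, Nr2e3-/- minus WT) with its 95% interval from edgeR over all 6 libraries (black), and the value when a single library was left out (grey ticks, with a red diamond for Nr2e3-/- replicate 1). The intervals of Epcam, Spp1 and Cldn7 exclude 0 before adjustment for the number of genes, and those of the other 5 markers span 0.

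To compare levels between genes, CPM were divided by the length of all annotated exons of a gene in kilobases. On this per-length scale Spp1 had 40.4 ± 21.1 (SD, n = 3) CPM per kilobase in WT and 129 ± 110 (SD, n = 3) in the Nr2e3-/- group, above the other markers in every library. Sox9 had 1.84 ± 0.318, Cldn7 1.83 ± 1.64, Prom1 1.67 ± 1.01 and Cd24a 1.12 ± 0.276 CPM per kilobase in WT tumors (SD, n = 3), and these neighbours in the order did not differ beyond their spread. Epcam followed with 0.950 ± 0.128, Krt19 with 0.464 ± 0.153 and Krt7 with 0.129 ± 0.0363 CPM per kilobase in WT (SD, n = 3), and the libraries of these 3 genes did not overlap each other. In Nr2e3-/- tumors Epcam had 2.81 ± 2.09 CPM per kilobase (SD, n = 3), with the highest mean after Spp1, but its lowest library lay under those of Sox9. For comparison, the mean per-length level in WT was 194 CPM per kilobase for Krt18 and 86.9 for Krt8, while the duct keratins Krt7 and Krt19 were below 1 in all 6 libraries.

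The spread between libraries of a genotype separated the markers from each other. The SD of log2 CPM among Nr2e3-/- libraries was 1.30 for Epcam and 1.44 for Spp1, and 1.75% and 1.28% of all genes tested had a larger one. Among WT libraries it was 1.58 for Cldn7 and 0.995 for Prom1, with 0.258% and 1.15% of genes above them. The median over all genes tested was 0.258 among Nr2e3-/- and 0.14 among WT libraries. Counting error alone would give an SD of 0.186 for Epcam and 0.0331 for Spp1 in Nr2e3-/- libraries, and of 0.213 for Cldn7 and 0.0911 for Prom1 in WT libraries. In WT, by contrast, Epcam had an SD of 0.188, close to its counting error of 0.190. Sox9 had 0.246 in WT and 0.243 in Nr2e3-/- tumors, where counting error gives 0.0998 and 0.128. Krt7 had 0.388 in WT and 0.463 in Nr2e3-/- tumors, where counting error gives 0.292 and 0.382.

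No single library was high in all markers. Nr2e3-/- replicate 2 was the highest of the 6 for 3 markers (Epcam, Spp1 and Cd24a) and the lowest for 2 (Krt7 and Cldn7). WT replicate 1 was the highest for Krt7 and Prom1, WT replicate 2 for Sox9 and Cldn7, and Nr2e3-/- replicate 1 for Krt19. WT replicate 3 was the lowest for Krt19, Prom1 and Cd24a. Relative to the WT mean of each marker on the log2 scale, the median over the 8 markers was 0.28, 0.18 and -0.39 in WT replicates 1 to 3 and -0.17, -0.18 and 0.02 in Nr2e3-/- replicates 1 to 3, so the genotypes overlapped in the median as well.

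**Figure D3:**
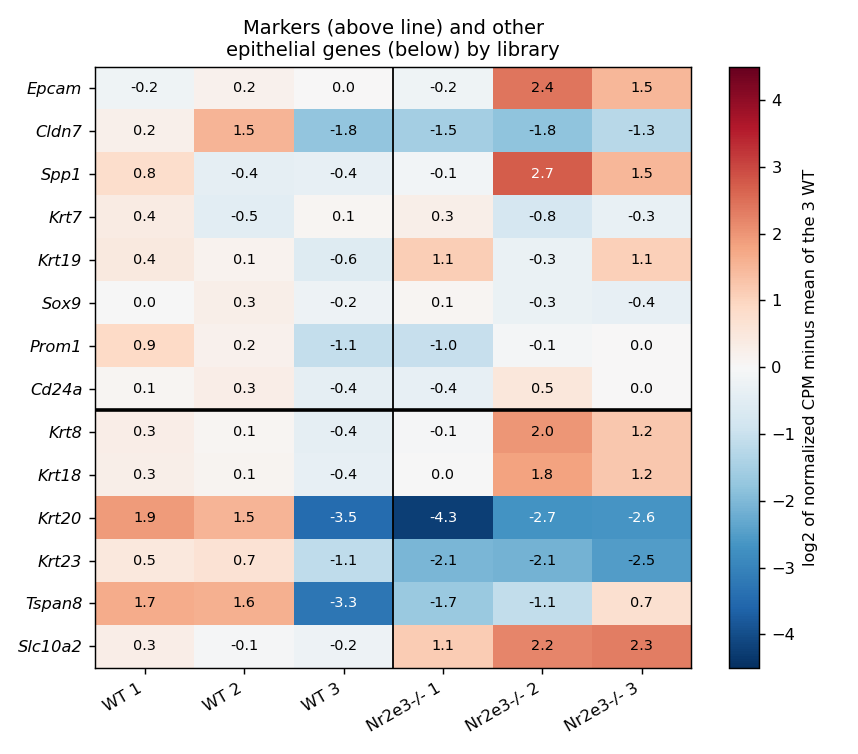
Each cell gives log2 of normalized CPM minus the mean of the 3 WT libraries for a gene (rows) in a library (columns), with the 8 markers above the thick line and 6 other epithelial genes, picked out with their values known, below it. Epcam, Spp1, Krt8 and Krt18 are red in Nr2e3-/- replicates 2 and 3, and Cldn7, Krt20 and Tspan8 are blue in WT replicate 3, unlike in WT replicates 1 and 2.

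The genes whose pattern over the 6 libraries was nearest to that of Epcam were found by the root mean square difference of log2 CPM, centred on each gene's mean. They were Gvin1 and Gm4070 (0.131 each), Chac1 (0.137), Arid5a (0.143) and Rasd1 (0.155). Gvin1 and Gm4070 had the same CPM in each library, and whether they share reads was not tested. Chac1, a glutathione-degrading enzyme of the stress response, had 2.92, 3.86 and 3.33 CPM in WT and 2.98, 17.2 and 12.0 CPM in Nr2e3-/- tumors. Arid5a, an RNA-binding protein, had 2.11, 2.81 and 3.23 CPM in WT and 2.38, 13.8 and 8.33 CPM in Nr2e3-/- tumors. Among 13571 genes ranked in this way, Spp1 came at place 282 and Cd24a at 2178. The other 5 markers came at place 9561 or later, Cldn7 at 13394.

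A wider list of 32 bile duct genes was read to see whether the markers moved with the rest of the duct programme. Of these, 24 passed the filter, with 9 above and 15 below 0 and a median log2 fold change of -0.17. At an unadjusted p-value under 0.05 there were 3 higher and 4 lower, and 0 of the 24 passed an adjusted one in edgeR. Slc10a2, the sodium-dependent bile acid carrier of cholangiocytes and ileum, had the smallest p-value. It had 30.2, 23.6 and 21.1 CPM in WT and 54.7, 114 and 123 CPM in Nr2e3-/- tumors (log2 fold change 1.96, standard error 0.31, edgeR adjusted p = 0.0887), and all 3 Nr2e3-/- libraries were above all WT libraries. Onecut2, a transcription factor of early duct formation, had 118, 129 and 166 CPM in WT and 97.3, 77.8 and 98.7 CPM in Nr2e3-/- tumors (log2 fold change -0.59, standard error 0.16, edgeR adjusted p = 0.13). Krt23, described above, had the second smallest p-value of the list. Some genes by which cholangiocytes are defined had few counts in both groups. Cftr, the chloride channel of duct cells, had 7 to 11 counts in WT and 3 to 10 counts in Nr2e3-/- libraries, and Sctr, the secretin receptor, had at most 4 counts in WT and 0 in each Nr2e3-/- library, where 3 counts taken as the limit that a 0 allows are 0.111 to 0.199 CPM. Cftr and Sctr were picked out after their values were seen, and the limits cover counting error only. With Krt7 and Krt19 under 2 CPM in each library as well, these 4 duct cell genes were near the lower limit of what these libraries could show.

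The regulators of the choice between hepatocyte and duct cell, among them the Notch, Hippo and TGF-β pathways, were read as 28 genes in the table, all tested. There were 13 above and 15 below 0, with a median log2 fold change of -0.05. At an unadjusted p-value under 0.05 there were 4 higher and 6 lower (21.5% of all genes tested), and 0 passed an adjusted one in edgeR. Hhex, a homeobox factor of liver and bile duct formation, had 93.8, 108 and 124 CPM in WT and 56.8, 45.9 and 33.9 CPM in Nr2e3-/- tumors (log2 fold change -1.26, standard error 0.20, edgeR adjusted p = 0.0909). Foxa1, a pioneer factor of the liver lineage, had a log2 fold change of -0.66 ± 0.13 (SE, edgeR adjusted p = 0.093). Yap1, the effector of the Hippo pathway that can turn hepatocytes toward a duct-like state, had 102, 97.9 and 94.2 CPM in WT and 121, 182 and 194 CPM in Nr2e3-/- tumors (log2 fold change 0.76, standard error 0.18, edgeR adjusted p = 0.111). The groups of Hhex, Foxa1 and Yap1 did not overlap. Hes1, a target of Notch, had a log2 fold change of -0.54 and Cyr61, a target of YAP, one of -0.93 (edgeR adjusted p = 0.132 and 0.123). Both had non-overlapping groups, a feature of 9 of the 28 genes here and of 26.8% of all genes tested. Notch2 (0.28) and Rbpj (0.18) were higher, also with non-overlapping groups. Hey1 (-0.43), Heyl (0.22) and Ctgf (-0.06) had overlapping groups. Hes1, Cyr61, Notch2, Rbpj, Hey1, Heyl and Ctgf were picked out after their values were seen. Whether Notch or YAP activity differed was not tested.

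Other progenitor and oncofetal genes were read as a list of 26, of which 20 were tested. There were 5 above and 15 below 0, with a median of -0.23 on the log2 scale, and 1 had an unadjusted p-value under 0.05. That was Lgr5, a stem cell receptor and Wnt target, with 6.72, 5.58 and 7.59 CPM in WT and 5.23, 2.93 and 4.38 CPM in Nr2e3-/- tumors (log2 fold change -0.68, standard error 0.25, edgeR adjusted p = 0.187). Afp, the fetal serum protein used as a liver cancer marker, had 135, 43.5 and 19.9 CPM in WT and 28.7, 30.1 and 21.5 CPM in Nr2e3-/- tumors, and was picked out after its values were seen. As with Prom1, the highest value of Afp was in WT replicate 1. Target genes of β-catenin in liver were 5 above and 14 below 0 of 19 tested, with a median of -0.34. Tnfrsf19, a receptor of the TNF family, had a log2 fold change of -1.45 (edgeR adjusted p = 0.123), Rhbg, an ammonium channel, one of 0.78 (edgeR adjusted p = 0.139) and Slc1a2, a glutamate carrier, one of -0.42 (edgeR adjusted p = 0.185). Epcam and Sox9 are also known as targets of β-catenin, and their log2 fold changes were 1.58 and -0.21.

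**Figure D4:**
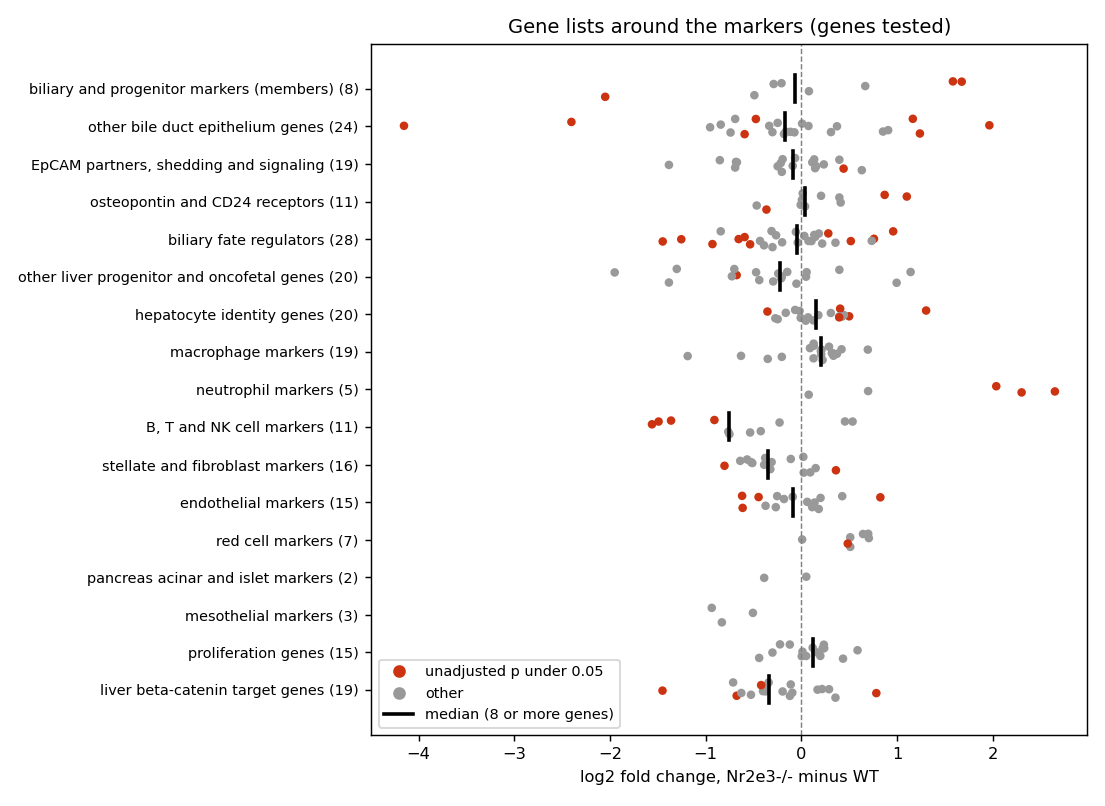
Log2 fold change (x axis, Nr2e3-/- minus WT) of each gene tested in the lists around the markers (rows, with the number tested), in red for an unadjusted p-value under 0.05, with a black bar for the median of lists of 8 or more genes. The 8 markers fall on both sides of 0, and the medians of the wider duct (-0.17) and progenitor (-0.23) lists lie below it.

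Spp1 and Cd24a are also made by blood cells, so the levels of other cell types were set beside them. Of 20 macrophage markers, 19 were tested, 15 above and 4 below 0 with a median of 0.21 on the log2 scale, and 0 had an unadjusted p-value under 0.05. Their summed level was 532 to 646 CPM in WT and 450 to 1070 CPM in Nr2e3-/- tumors, highest in Nr2e3-/- replicate 2, the library highest in Spp1. In Nr2e3-/- replicate 3, where Spp1 was at 171 CPM, that sum was 580 CPM, inside the WT range. Trem2 and Gpnmb, which mark macrophages rich in osteopontin, had 0.768 to 1.45 and 1.11 to 3.92 CPM in WT and 0.973 to 1.34 and 0.596 to 7.02 CPM in Nr2e3-/- tumors. Both were picked out after their values were seen, and the part of macrophages in the level of Spp1 was not tested. Of 13 neutrophil markers, 5 passed the filter, and the summed level was 4.47 to 7.58 CPM in WT and 3.91, 33.4 and 20.8 CPM in Nr2e3-/- replicates 1, 2 and 3, the same order as for Epcam and Spp1. S100a8, a calcium-binding protein of neutrophils, had 0.653, 1.05 and 0.694 CPM in WT and 0.728, 8.61 and 5.57 CPM in Nr2e3-/- tumors (log2 fold change 2.65, edgeR adjusted p = 0.134). S100a9, its partner, had a log2 fold change of 2.30 (edgeR adjusted p = 0.14) and Cxcr2, a chemokine receptor, one of 2.04 (edgeR adjusted p = 0.183). Csf3r, also tested, had one of 0.08 (edgeR adjusted p = 0.937). Among those below the filter, Elane, a protease, had at most 2 counts. Retnlg had 4, 5 and 4 counts in WT and 4, 97 and 30 in Nr2e3-/- libraries. Mmp8 had 4, 10 and 3 counts in WT and 3, 75 and 36 in Nr2e3-/- libraries. Csf3r, Elane, Retnlg and Mmp8 were picked out after their values were seen. The part of neutrophils in the values of Epcam, Spp1 and Cd24a was not tested.

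Among B, T and NK cell markers, 11 of 14 were tested, 2 above and 9 below 0 with a median of -0.75 on the log2 scale, and 4 lower ones had an unadjusted p-value under 0.05. Cd79b, Cd79a and Ms4a1, all of B cells, which carry CD24, had log2 fold changes of -1.56, -1.36 and -1.49 (edgeR adjusted p = 0.102, 0.134 and 0.141). The summed level of the list was 5.57 to 12.4 CPM in WT and 3.95 to 7.91 CPM in Nr2e3-/- tumors. Red cell markers were 7 above and 0 below 0 of 7 tested, with sums of 156 to 216 CPM in WT and 244 to 338 CPM in Nr2e3-/- tumors. Hba-a1 and Hba-a2 had the same counts in each library and enter these figures as separate genes, and Bpgm was at 0.007. Alas2, the heme synthesis enzyme of red cells, had a log2 fold change of 0.48 (edgeR adjusted p = 0.155). It made up a large part of the sums, with 92.1, 66.2 and 79.2 CPM in WT and 124, 97.3 and 111 CPM in Nr2e3-/- tumors. Cd24a, by comparison, had a log2 fold change of 0.08, and the part of these cells in it was not tested.

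Sox9 and Krt19 are shared with the pancreas and Krt19 with the mesothelium that covers the liver. Of 15 pancreas genes, Prss1, Cpa1, Cpb1, Ctrb1, Pnlip, Amy2a5, Cel, Ptf1a, Ins1, Ins2 and Gcg had 0 counts in all libraries. Cela1, which had 20.5 to 33.5 CPM, was the highest of that list. Mesothelial genes summed to 3.65 to 6.72 CPM in WT and 1.35 to 6.55 CPM in Nr2e3-/- tumors, with 0 above and 3 below 0 of 3 tested. Upk3b had 1.57, 0.710 and 0.763 CPM in WT and 1.59, 0.111 and 0.0541 CPM in Nr2e3-/- tumors. The values of Nr2e3-/- replicates 2 and 3 rest on 3 and 1 counts, so the order of these libraries in Upk3b is not settled. Upk3b was nearly equal in Nr2e3-/- replicate 1 and WT replicate 1. The mesothelial sum was 6.72 CPM in WT replicate 1 and 6.55 CPM in Nr2e3-/- replicate 1. Krt19 was highest in Nr2e3-/- replicate 1. Nr2e3-/- replicate 3 was the lowest for Upk3b and for the mesothelial sum, and the second highest for Krt19. Upk3b, Cela1 and the pancreas genes at 0 were picked out after their values were seen, and the part of mesothelium in the level of Krt19 was not tested.

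Stellate and fibroblast markers had 5 above and 11 below 0 of 16 tested (median log2 fold change -0.34), with sums of 494 to 576 CPM in WT and 327 to 543 CPM in Nr2e3-/- tumors. Tagln, of contractile cells, had a log2 fold change of 0.36 (edgeR adjusted p = 0.138) and Hhip one of -0.80 (edgeR adjusted p = 0.183). Endothelial markers had 7 above and 8 below 0 of 15 tested (median -0.09), with sums of 541 to 552 CPM in WT and 450 to 564 CPM in Nr2e3-/- tumors. Lyve1 had a log2 fold change of 0.82, Kdr one of -0.61 and Fcgr2b one of -0.45 (edgeR adjusted p = 0.111, 0.123 and 0.176). Proliferation genes had 11 above and 4 below 0 of 15 tested (median 0.12), and 0 had an unadjusted p-value under 0.05. Hepatocyte identity genes had 13 above and 7 below 0 of 20 tested (median 0.15), with 5 higher and 1 lower at an unadjusted p-value under 0.05. Tat, an enzyme of mature hepatocytes, had 755, 570 and 726 CPM in WT and 2450, 874 and 1740 CPM in Nr2e3-/- tumors (log2 fold change 1.30, standard error 0.35, edgeR adjusted p = 0.127). Cebpa, a transcription factor of hepatocytes, had a log2 fold change of -0.36 (edgeR adjusted p = 0.152).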

How the data were processed

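RNA was extracted from liver tumors of 3 WT and 3 Nr2e3-/- mice, and TruSeq libraries were sequenced with single-end reads. The authors aligned the reads to mm10 (GRCm38) with TopHat, counted them per gene with FeatureCounts and deposited raw counts, without normalization. The versions, the annotation and the strand setting are not given in the sources used here. The authors' normalized table was not used, and neither was their comparison table, which holds mean levels, log2 fold changes with standard errors, test statistics and p-values.

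The deposited counts went into edgeR 4.0.16 (R 4.3.3). Low genes were removed by filterByExpr (minimum count 10, minimum total count 15), scaled by TMM and compared by the quasi-likelihood F test, two-sided, without covariates and with Benjamini-Hochberg adjustment over all 13572 genes tested. Calls were made at an adjusted p-value under 0.05. Log2 CPM used a prior count of 2. Exact permutation tests were run with scipy 1.17.1. The fit was run on counts simulated with known differences and with the spread that edgeR estimated for each gene. No library of a group was set apart in them, so that run says nothing about such a case. Gene positions and exon lengths came from GENCODE M21 and promoters from RefSeq, both on GRCm38. The labels give no litter or batch, so neither could be modelled or told apart from genotype. The edgeR p-values set the difference between genotypes against the spread between tumors of a genotype. Groups follow the genotype that each sample's title gives.

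Alternatives were RLE and upper quartile scaling, DESeq2 1.42.0, limma-voom (limma 3.58.1), 2 other filters, the replicate number as a block and leaving out each library. The genes named are the 8 markers, the 5 genes nearest to Epcam in pattern, and from each list up to 3 genes with the smallest unadjusted p-values under 0.05, others being marked where they were picked out later. Results for a few of these genes are not reported here. The members and lists were chosen with earlier results of these data known.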

Additional observations from a re-analysis of the deposited data

How the results depend on the processing

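Over all genes tested, 13 were called at an adjusted p-value under 0.05. That count was 8 with upper quartile scaling, 1093 with DESeq2, 2360 with limma-voom, 70 without a filter beyond 1 count, and 7 with at least 10 counts in every library. Leaving out a library gave 0 to 3022, the highest without Nr2e3-/- replicate 1, and 0 without WT replicate 1, WT replicate 3 or Nr2e3-/- replicate 3, where 2151, 1785 and 1693 genes had an unadjusted p-value under 0.05. Of the 8 markers, 0 were called by edgeR, 2 by DESeq2, 1 by limma-voom, and 0 to 2 when a library was left out, the 2 being Epcam and Spp1 without Nr2e3-/- replicate 1. Markers whose groups did not overlap were 0 with all libraries and 0 to 3 when a library was left out. The 3 without Nr2e3-/- replicate 1 were Epcam, Sox9 and Spp1, in a fit where 54.9% of the genes did not overlap. The sign changed for Cd24a, from 0.08 to -0.015 with upper quartile scaling, -0.11 without WT replicate 3 and -0.19 without Nr2e3-/- replicate 2 (-0.19 to 0.27 over the libraries left out), and for Prom1, from -0.49 to 0.036 without WT replicate 1 (-0.87 to 0.036). The other 6 markers kept their sign in all 13 alternatives. The cause of these shifts was not tested.

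With the replicate number as a block, edgeR called 0 genes, with 2438 at an unadjusted p-value under 0.05, and 0 of the 8 markers. Same-numbered libraries did not deviate together (correlations across genes of -0.0766, 0.221 and 0.0234 for numbers 1, 2 and 3), and the labels do not tie the numbers to shared animals or days, so the numbers were not taken as a pairing. Counts of 13 to 32 per library limit what can be seen for Krt7 and Krt19.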
